A study of Homo sapiens with 12 samples.

Results

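Transcripts of 10 receptors were followed in U937 cells given antibodies to one of them, LILRB3. The receptors are the inhibitory LILRB1, LILRB2, LILRB3, LILRB4, LILRB5 and LAIR1 and the activating LILRA1, LILRA2, LILRA5 and LILRA6, taken by symbol from the 27825 named rows of the antagonist count table. All 10 had a row there, and 0 of the 10 were among the 904 rows of the agonist table, so every value of a receptor below compares the antagonist with its IgG control.

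U937 is an established human line of monocytic cells. RNA was sequenced in 12 libraries, in 4 groups of 3: LILRB3 antagonist antibody with its IgG control (set 1), and LILRB3 agonist antibody with its own IgG control (set 2). The labels give 50 ng/mL interferon gamma to all 4 groups, as a pretreatment meant to raise LILRB3, and then antibody for 72 hours at a concentration written as 5 mg/mL, a unit kept here as the labels have it. The question put by the design is how blocking and engaging LILRB3 each alter the transcriptome relative to nonspecific IgG. One cell line carried all groups, and the labels do not state whether the 3 libraries of a group were separate cultures. A p-value here therefore measures spread between libraries that may be technical.

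Leukocyte immunoglobulin-like receptors are surface proteins encoded side by side in the leukocyte receptor complex. The LILRB members carry immunoreceptor tyrosine-based inhibitory motifs (ITIMs) in their tails, which recruit the phosphatases SHP-1 and SHP-2 once phosphorylated. The LILRA members have short tails and signal through the Fc receptor gamma chain, an adaptor with an activating motif, and LAIR1 is an ITIM receptor of the same gene cluster that binds collagen.

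ITIMs in the tails mark the inhibitory receptors, so the coding sequence of those found is given for LILRB3, the receptor both antibodies address, and for LAIR1. Each stretch is 18 bases, read 5′ to 3′ from GENCODE 29 coding sequences, with the tyrosine codon in capitals.
LILRB3, tyrosine at residue 543: gtgacgTATgccccggtg
LILRB3, tyrosine at residue 595: gtgaccTACgcccagctg
LILRB3, tyrosine at residue 625: agcatcTACgccactctg
LAIR1, tyrosine at residue 251: gtgacgTATgctcagctg
LAIR1, tyrosine at residue 281: atcacgTATgcagccgtt
The search began after the most hydrophobic window of 19 residues outside the first part of the protein. It looked for a serine, isoleucine, valine or leucine, then any residue, a tyrosine, any pair of residues, and a leucine, valine or isoleucine. No other form of the motif was looked for. The search found 3 such motifs in the tails of LILRB1, LILRB3 and LILRB4 and 2 in those of LILRB2, LILRB5 and LAIR1. Tails with a motif ran over 103 to 170 residues. The tails of LILRA1, LILRA2, LILRA5 and LILRA6 had 9 to 15 residues and held 0 motifs. The stretch around residue 595 of LILRB3 was letter for letter that around residue 616 of LILRB1, residue 562 of LILRB2 and residue 554 of LILRB5.

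All 10 genes lie on chromosome 19 (GENCODE 29, GRCh38). On the minus strand are LILRB3 (54216278 to 54223506), LILRA6 (54236592 to 54242791), LILRB5 (54249431 to 54257301), LILRB2 (54273821 to 54281184), LILRA5 (54307070 to 54313139) and LAIR1 (54351384 to 54370558). On the plus strand follow LILRA2 (54572920 to 54590287), LILRA1 (54593582 to 54602090), LILRB1 (54617158 to 54637528) and LILRB4 (54643889 to 54670359). The promoters of LILRB3 and of the most abundant receptor, LILRA2, are shown because they share a short motif with most of the family. Both are RefSeq windows from 250 bases before to 50 bases after the start site (GRCh38.p14), in gene orientation, with the match in capitals.
LILRB3, chr19:54222958-54223257, minus strand: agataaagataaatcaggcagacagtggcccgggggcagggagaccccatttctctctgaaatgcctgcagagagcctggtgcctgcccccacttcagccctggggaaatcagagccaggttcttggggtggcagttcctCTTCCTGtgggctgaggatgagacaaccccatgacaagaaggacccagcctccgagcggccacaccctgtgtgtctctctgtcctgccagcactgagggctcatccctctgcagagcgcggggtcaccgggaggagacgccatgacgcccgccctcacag
LILRA2, chr19:54573540-54573839, plus strand: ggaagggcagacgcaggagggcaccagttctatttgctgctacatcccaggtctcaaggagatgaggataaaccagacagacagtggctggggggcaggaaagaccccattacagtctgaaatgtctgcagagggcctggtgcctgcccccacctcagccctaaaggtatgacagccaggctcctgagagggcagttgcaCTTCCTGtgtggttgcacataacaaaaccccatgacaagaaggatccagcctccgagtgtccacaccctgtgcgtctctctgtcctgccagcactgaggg
The motif is CAGGAAG, a core bound by ETS factors such as PU.1, searched on both strands; in these windows it reads on the opposite strand. It occurred in windows of 7 of the 9 receptors with a RefSeq window (LILRB1, LILRB2, LILRB3, LILRB4, LILRB5, LILRA1 and LILRA2), and in 9 of their 16 windows. Some of these overlap: the matching windows of LILRB2 hold the same site, as do those of LILRA2. The letters around the match were closely similar in LILRB3, LILRB4, LILRB5, LILRA1 and LILRA2, so these matches are not independent of each other. Of all 35116 RefSeq promoter windows of that length, 12.7% held it. The motif was chosen after these sequences had been seen. The interferon-related motifs TTCNNNGAA (GAS) and GAAANNGAA (IRF) each occurred in 1 receptor window, of LILRB2 and of LILRA5, against 7.66% and 8.11% of all windows. A match is a description of letters and not a binding site.

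Set 1 libraries held 17035334 to 17771980 counts in named genes in the antagonist group and 17142362 to 18820312 in the IgG group. Library 1 of the IgG group stood apart: its counts differed from those of IgG libraries 2 and 3 with a chi-square per degree of freedom of 8.22 and 14.4, against 1.79 to 3.67 for the other pairs within groups, and values without it are given beside the receptors whose call or direction changed. Of 13778 genes tested in set 1, 36.1% passed an adjusted p of 0.05 (edgeR quasi-likelihood test), 15.6% as higher and 20.5% as lower with the antagonist. Many monocytic and myeloid markers were plentiful, such as CD33 at a mean of 66.0 CPM (counts scaled to a common library size) in antagonist and 65.3 CPM in IgG libraries. Others were low: CSF1R was at 2.58 and 2.55 CPM, MPO at 0.796 and 0.467 CPM, and CD14 had 13 and 22 counts in all. Of 15 tested genes of this list, 2 rose (ITGAX and CSF3R) and 2 fell (CTSG and LYZ) with the antagonist. Of the markers of other cell types, CD3G, KLRD1, MS4A1, HBB, EPCAM and LUM were at 0 in every library. The cytotoxic granule gene NKG7, at 282 CPM in antagonist and 353 CPM in IgG libraries, made up most of the T and NK marker counts. Marker sums in this paragraph are on unscaled totals, so they do not compare directly with these scaled values. The T and NK sum was 292 to 294 CPM in antagonist and 338 to 359 CPM in IgG libraries, and 1 tested gene of 2 was lower. The B cell marker sum was 32.5 to 36.9 CPM in antagonist and 29.9 to 31.9 CPM in IgG libraries, with 1 of 4 tested genes, PAX5, higher. Erythroid markers summed to at most 1.35 CPM and epithelial and fibroblast markers to at most 3.64 CPM in any library, with 0 of 1 tested gene called in each list. The part of these markers in the results was not tested.

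U937 cells transcribed this family unevenly, and LILRA2 alone supplied most of it. Of all counts for the 10 genes, LILRA2 had 66.6%, 66.7% and 69.1% in the antagonist libraries and 66.2%, 70.3% and 70.5% in the IgG libraries (95% exact Clopper-Pearson bounds between 63.0% and 73.4% over the 6 libraries). Over the group sums, LAIR1 followed with 14.7% in antagonist and 14.8% in IgG libraries, LILRB2 with 7.27% and 5.90%, and LILRA1 with 6.57% and 7.32%. LILRB1, LILRA6 and LILRB3 had 2.08%, 1.14% and 0.408% in antagonist libraries, and 1.20%, 1.12% and 0.187% in IgG libraries. The receptor addressed by the antibodies was thus among the least counted of its own family. Intervals here cover counting error only.

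**Figure D1:**
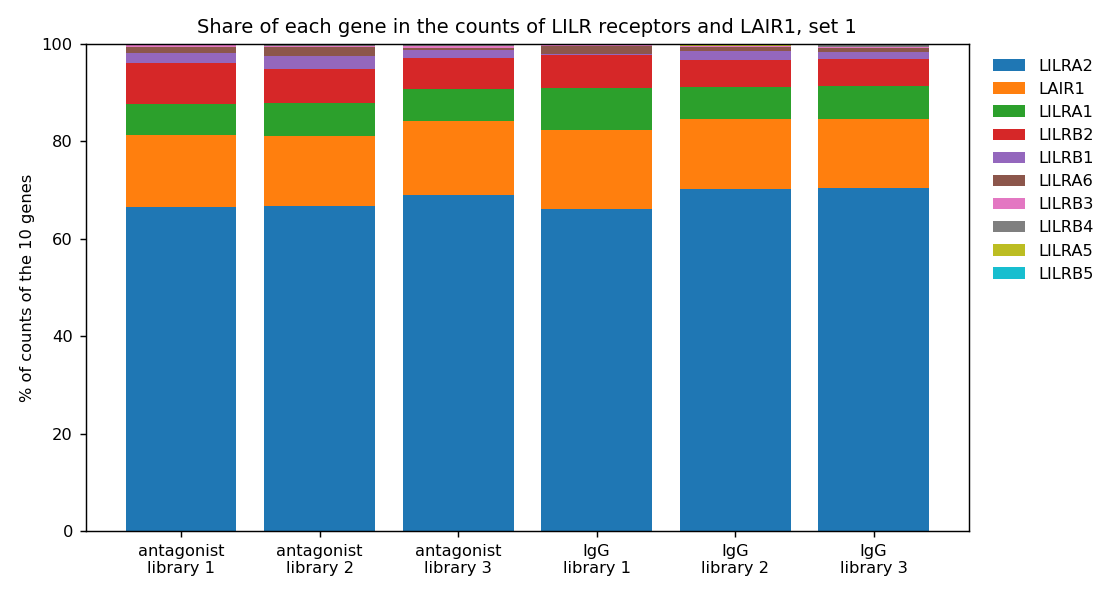
Share of each gene in the summed counts of the 10 receptors (y axis, percent) in each of the 6 set 1 libraries, antagonist on the left. LILRA2 takes 66.2 to 70.5% of every bar, and the band of LILRB3 is barely visible.

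Levels of different genes were compared per length, as CPM per kilobase of the principal transcript. LILRA2 led with 6.93 ± 0.36 CPM per kb in antagonist and 8.10 ± 1.14 CPM per kb in IgG libraries (SD, n = 3). LILRA1, LAIR1 and LILRB2 formed a middle tier, at means of 1.57, 1.37 and 1.45 CPM per kb in antagonist libraries and 1.98, 1.57 and 1.33 CPM per kb in IgG libraries. Within this tier, LILRB2 (1.28 to 1.72 CPM per kb) overlapped both LILRA1 (1.52 to 1.61) and LAIR1 (1.28 to 1.44) in antagonist libraries, and the 3 ranges were apart in IgG libraries. LILRA6 and LILRB1 came next, at 0.276 ± 0.176 and 0.341 ± 0.051 CPM per kb in antagonist and 0.303 ± 0.083 and 0.229 ± 0.150 CPM per kb in IgG libraries, and did not differ from each other beyond their spread. LILRB3 followed with 0.0656 ± 0.0315 CPM per kb in antagonist and 0.0338 ± 0.0116 CPM per kb in IgG libraries. LILRA5, LILRB4 and LILRB5 had mean levels of at most 0.0444 CPM per kb in either group, and that of LILRA5 in IgG libraries (0.0444 ± 0.0449) was above that of LILRB3. The order over all 6 libraries was the same when all exons of a gene, and not its principal transcript, gave the length. In the ranking of all tested genes by mean CPM, LILRA2 was above 57.1% of genes, LAIR1 above 27.2%, LILRA1 above 18.3%, LILRB2 above 17.6%, LILRB1 above 3.89% and LILRA6 above 0.486%.

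**Figure D2:**
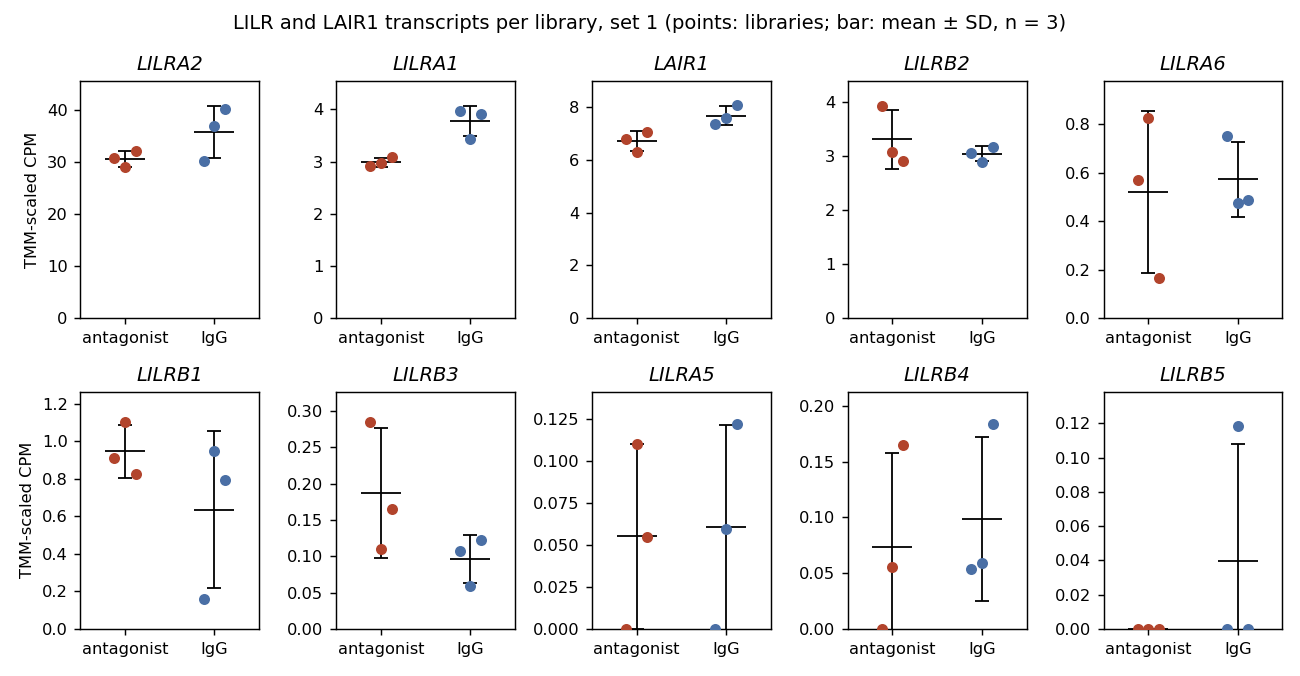
TMM-scaled CPM (y axis, a separate scale for each gene, starting at 0) of the 10 receptors in antagonist and IgG libraries of set 1; points are libraries and bars the mean ± SD (n = 3). The points of LILRA1 and LAIR1 do not overlap between the groups, and those of the other 8 genes do.

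Of the 10 receptors, 6 passed the filter on low counts (LILRB1, LILRB2, LAIR1, LILRA1, LILRA2 and LILRA6), and 0 of these 6 passed an adjusted p of 0.05 with the antagonist, where 36.1% of all tested genes did. At an unadjusted p under 0.05, 1 of the 6 passed in edgeR (LILRA2), against 45.9% of all tested genes. DESeq2 gave an adjusted p for 4 of the 6 and called 0 of them. LILRB3, LILRB4, LILRB5 and LILRA5 were too low to test in the model. In bulk RNA, fewer cells expressing a gene and less of its RNA per cell cannot be told apart.

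LILRB3, an inhibitory receptor of monocytes, granulocytes and acute myeloid leukaemia cells, was close to undetected. It had 5, 2 and 3 counts in antagonist libraries and 2, 1 and 2 counts in IgG libraries. Values of both groups overlapped at 2 counts. Summed over libraries this was 0.191 CPM in antagonist (95% interval 0.0916 to 0.351) and 0.0939 CPM in IgG libraries (0.0305 to 0.219), on unscaled totals. The ratio of antagonist to IgG was 2.03 with a counting interval of 0.634 to 7.59 (exact two-sided p = 0.206), so a difference was not detectable at this depth and the interval holds both a lower and a higher level. Without antagonist library 1 the ratio was 1.51.

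Interferon gamma was given to raise LILRB3, per the labels, and several classical interferon gamma targets were also close to 0 in set 1. Summed over 3 libraries each, GBP1 had 2 counts in antagonist and 2 in IgG libraries, CXCL9 had 0 and 1, CXCL10 had 1 and 0, HLA-DRA had 1 and 2, and IDO1 had 0 in both. In set 2, the chemokine gene CXCL10 had 543, 449 and 541 counts in agonist libraries and 756, 620 and 789 counts in IgG libraries. Set 2 listed 5 genes of the interferon gamma list, and only CXCL10 (log2 fold change -0.60) lay below 0 with the agonist. IRF1 (0.19), IRF9 (0.19), GBP2 (0.17) and GBP5 (0.18) lay above 0. These were not close to 0 counts in set 1. IRF1 had 1254 counts in antagonist and 1353 in IgG libraries, IRF9 had 594 and 502, GBP2 had 189 and 207, and GBP5 had 813 and 808. Of the 20 genes of the interferon gamma list, 13 were tested in set 1, of which 2 rose and 3 fell. Over all tested genes, 15.6% rose and 20.5% fell. The median log2 fold change of the list was -0.16, against -0.01 over all tested genes. The transactivators CIITA (0.66 ± 0.12, SE) and NLRC5 (0.48 ± 0.07) were higher with the antagonist, and the immunoproteasome subunits PSMB8 (-0.66 ± 0.20) and PSMB9 (-0.66 ± 0.21) were lower, on the log2 scale. PSMB8 lost its call without antagonist library 1, IgG library 1 or IgG library 3, and PSMB9 without antagonist library 1 or 2 or IgG library 1. Without antagonist library 1, 2 genes of the list were called, and without IgG library 3, 3 genes. The part of the interferon treatment in the level of LILRB3 was not tested.

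LILRA6 is the activating counterpart of LILRB3, with a closely similar extracellular part. It had 10, 15 and 3 counts in antagonist libraries and 14, 8 and 8 counts in IgG libraries, and the antagonist values lay on both sides of the IgG values. The log2 fold change was -0.15 ± 0.50 (SE, adjusted p = 0.842), with a 95% interval of 0.425 to 1.92 in fold. It was 0.27 without antagonist library 3 and 0.14 without IgG library 1, so leaving out either library turned its sign. LILRA6 had more counts than LILRB3 in 5 of 6 libraries and the same number, 3, in antagonist library 3.

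The pair cannot be separated by sequence over a part of the transcripts, though most windows differ. Of all 50-base windows of LILRA6 transcripts, 22.4% were also found in LILRB3, and 16.3% of those of LILRB3 were found in LILRA6, which is 640 windows. Windows shared with any other gene made up 27.0% for LILRB3, 23.4% for LILRA6, 18.1% for LILRA2, 17.6% for LILRB1, 14.2% for LILRB4 and 14.1% for LILRB2. They were fewer for LILRB5 (9.20%), LILRA1 (5.29%), LAIR1 (4.76%) and LILRA5 (3.10%). How reads that match several genes were counted is not given in the sources used here, so counts of these genes are uncertain, and most of all those of a low gene that shares windows with a better counted one. With LILRB3 and LILRA6 counts added, the ratio of antagonist to IgG was 1.11 and not 2.03.

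**Figure D3:**
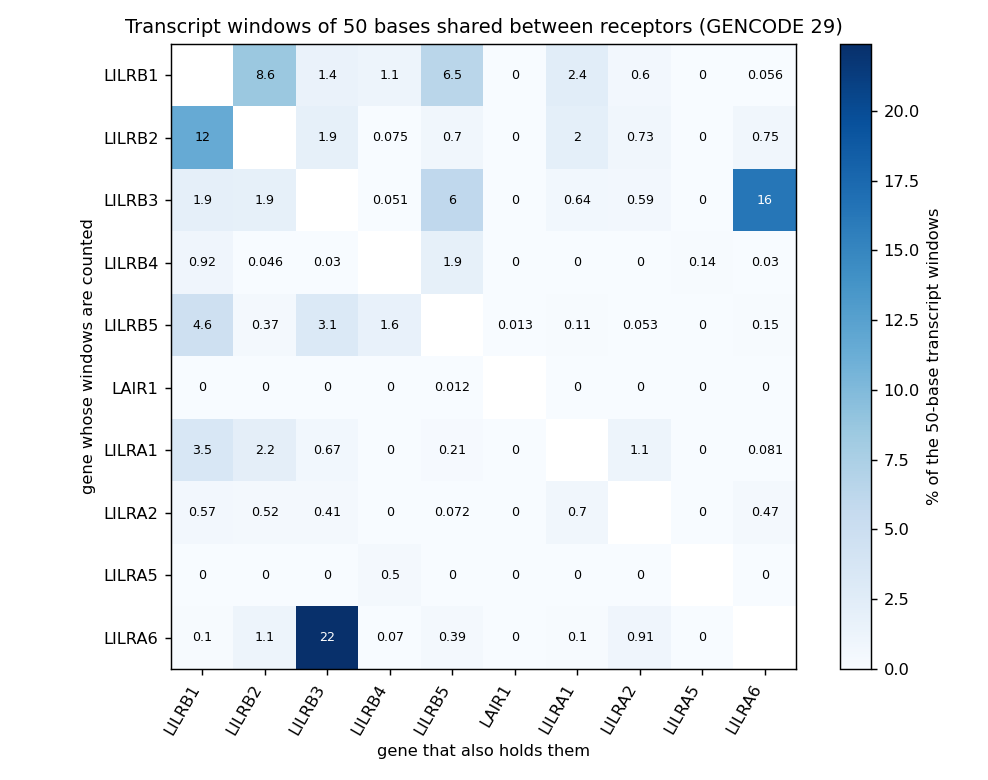
Percent of the 50-base transcript windows of each receptor (rows) that also occur in another receptor (columns), from GENCODE 29. The darkest cells are LILRA6 in LILRB3 (22.4%) and LILRB3 in LILRA6 (16.3%), followed by LILRB2 in LILRB1 (11.5%).

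LILRB1 and LILRB2 are inhibitory receptors for MHC class I molecules. LILRB1 had 16, 20 and 15 counts in antagonist libraries and 3, 16 and 13 counts in IgG libraries, which is 0.913, 1.10 and 0.826 CPM against 0.161, 0.948 and 0.795 CPM. The groups overlapped, and IgG library 1 was far below all other libraries. The log2 fold change was 0.60 ± 0.46 (SE, adjusted p = 0.328), with a 95% interval of 0.761 to 3.04 in fold, and it was 0.14 without IgG library 1. Exons of LILRB1 share 355 bases with the antisense gene LILRB1-AS1, which was not analysed here.

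LILRB2, which also binds angiopoietin-like proteins, was the better counted of the 2 MHC class I receptors. It had 3.94, 3.09 and 2.92 CPM in antagonist libraries and 3.06, 2.90 and 3.18 CPM in IgG libraries, from 53 to 69 and 49 to 57 counts. Antagonist library 1 was above every other library, and the remaining values of the groups overlapped. The log2 fold change was 0.12 ± 0.19 (SE, adjusted p = 0.652), with a 95% interval of 0.821 to 1.43 in fold, and it was -0.02 without antagonist library 1. Sequence is shared between these genes too, with 11.5% of the windows of LILRB2 found in LILRB1 and 8.55% of those of LILRB1 found in LILRB2.

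LILRB4, an inhibitory receptor of monocytic leukaemia cells that binds apolipoprotein E, had 0, 1 and 3 counts in antagonist libraries and 1, 1 and 3 counts in IgG libraries. The ratio of antagonist to IgG was 0.814 with a counting interval of 0.162 to 3.78 (exact two-sided p = 1). LILRB5 had 0 counts in the antagonist libraries, which allows a level of up to 0.0573 CPM over the group (3 counts), and 0, 2 and 0 counts in the IgG libraries. LILRA5, an activating receptor of monocytes, had 0, 2 and 1 counts in antagonist libraries and 0, 1 and 2 counts in IgG libraries. Counts of the last 2 genes were at or below 3 in both groups, so no fold is given. The set 1 table also had rows for related genes outside the 10: LILRA4 had 5 counts in antagonist and 7 in IgG libraries, LAIR2 had 12 and 4, and LILRP2 had 0 in both.

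LAIR1, the collagen receptor, was lower in every antagonist library than in every IgG library, but by less than the test could separate from the spread. It had 6.79, 6.28 and 7.05 CPM in antagonist libraries and 7.36, 7.58 and 8.07 CPM in IgG libraries, from 114 to 128 and 128 to 137 counts. Means were 6.71 ± 0.39 and 7.67 ± 0.36 CPM (SD, n = 3). The log2 fold change was -0.19 ± 0.12 (SE, adjusted p = 0.244), with a 95% interval of 0.726 to 1.05 in fold. Its windows overlap little with other receptors, and 3.45% of them were found in LAIR2, a secreted relative.

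LILRA1, an activating receptor that pairs with the Fc receptor gamma chain, showed the same order of groups. It had 2.91, 2.98 and 3.08 CPM in antagonist libraries and 3.98, 3.44 and 3.91 CPM in IgG libraries, from 51 to 56 and 58 to 74 counts. Every antagonist value lay below every IgG value. The log2 fold change was -0.34 ± 0.17 (SE, adjusted p = 0.137), with a 95% interval of 0.615 to 1.02 in fold. Groups that did not overlap, as for LAIR1 and LILRA1, were found in 2 of the 6 tested receptors and in 49% of all tested genes.

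LILRA2, an activating receptor that recognises microbially cleaved immunoglobulin, had 539, 528 and 586 counts in antagonist libraries and 565, 625 and 658 counts in IgG libraries. Scaled, this was 30.8, 29.1 and 32.3 CPM in antagonist libraries and 30.4, 37.0 and 40.2 CPM in IgG libraries. IgG library 1 fell among the antagonist values, and IgG libraries 2 and 3 were above all of them. Means were 30.7 ± 1.6 CPM in antagonist and 35.9 ± 5.0 CPM in IgG libraries (SD, n = 3). The log2 fold change was -0.22 ± 0.10 (SE, adjusted p = 0.0958). The 95% interval, 0.739 to 0.994 in fold, is not adjusted over genes. Without IgG library 1 the log2 fold change was -0.30 with an adjusted p of 0.00318, and without IgG library 3 it was -0.12. Scaled by library totals and not by TMM, it was -0.14 (edgeR, adjusted p = 0.267). Of the windows of LILRA2, 14.3% lie in AC245036.5, a noncoding gene on the same strand that shares 847 exon bases with it and was not analysed here, and 0.701% lie in LILRA1.

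**Figure D4:**
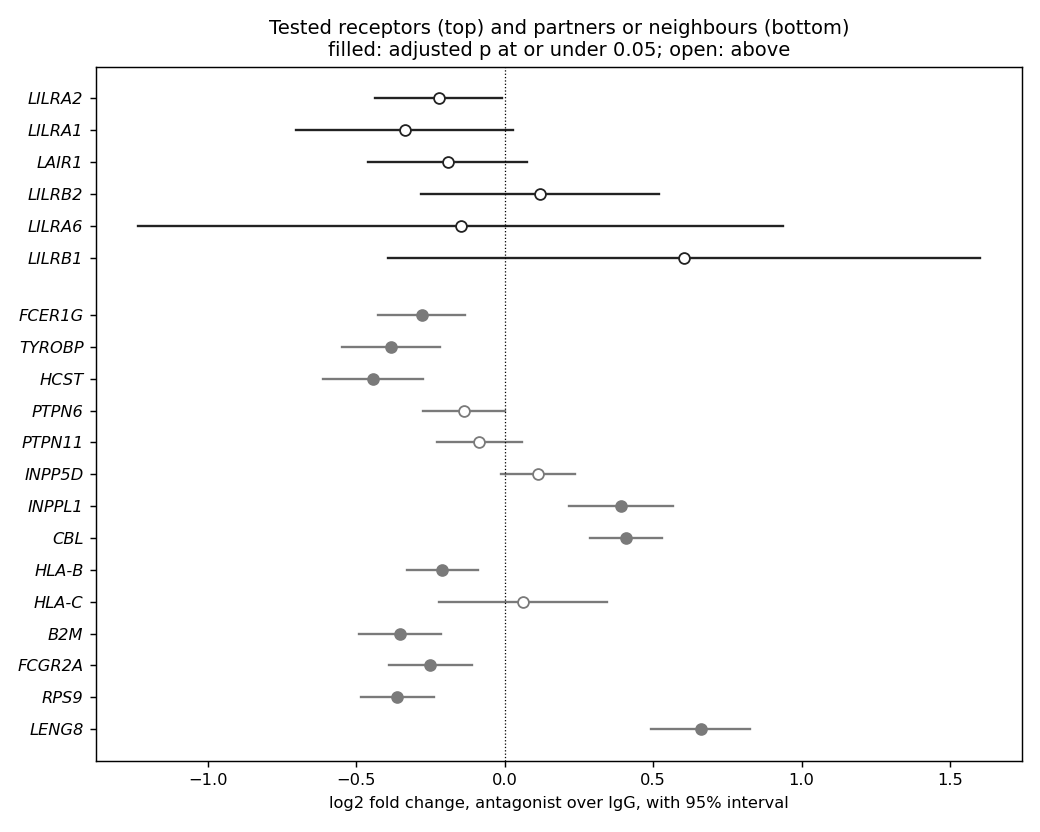
Log2 fold change of antagonist over IgG (x axis) with its 95% interval. The 6 tested receptors are at the top (black) and named genes of the other lists at the bottom (grey). Filled points have an adjusted p at or under 0.05. All 6 receptor points are open, and the widest intervals are those of LILRA6 and LILRB1, the least counted of the 6.

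Summed over the family, the 10 genes had 47.5, 45.1 and 47.7 CPM in antagonist libraries and 45.3, 51.4 and 54.5 CPM in IgG libraries, on unscaled totals. IgG library 1 again lay among the antagonist values. Inhibitory receptors summed to 12.3, 11 and 11.4 CPM in antagonist libraries and 10.6, 11.4 and 11.8 CPM in IgG libraries, with overlap. Activating receptors summed to 35.2, 34.1 and 36.4 CPM in antagonist libraries and 34.7, 40.0 and 42.7 CPM in IgG libraries, so these sums overlapped too, at IgG library 1. The inhibitory share of the family was 25.8%, 24.4% and 23.8% in antagonist libraries and 23.5%, 22.2% and 21.6% in IgG libraries, with means of 24.7% ± 1.04 and 22.4% ± 0.94 (SD, n = 3). The ranges did not overlap, but the nearest values were close. They were those of antagonist library 3 (202 of 848 counts) and IgG library 1 (200 of 853 counts). The difference in share was not tested, and no counting interval was made for it. These sums are dominated by LILRA2 and LAIR1 and are given as a description.

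The genes whose pattern over the 6 libraries was most like that of a receptor were found by the root mean square difference of centred log2 CPM, among 10666 other genes with a mean of at least 5 CPM. For LAIR1 they included SPECC1 (0.0181) and TMEM192 (0.0190). For LILRA2 they were CORO1B (0.0305), GAMT (0.0327) and FARSA (0.0350). These are distances on the log2 scale over 6 libraries that share their groups and depth.

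Genes on lists of adaptors, enzymes, ligands and other receptors were also tested, and several passed. All 3 adaptor genes on the list fell with the antagonist (3 of 3 tested, median log2 fold change -0.38), where 20.5% of all tested genes fell. FCER1G, the Fc receptor gamma chain used by LILRA receptors, had 43.0, 40.3 and 39.6 CPM in antagonist libraries and 51.7, 49.7 and 47.8 CPM in IgG libraries, a log2 fold change of -0.28 ± 0.07 (SE, adjusted p = 0.00715). TYROBP (DAP12) had 39.2, 36.3 and 40.6 CPM in antagonist libraries and 54.5, 47.0 and 49.8 CPM in IgG libraries (-0.38 ± 0.08, adjusted p = 0.00245). HCST (DAP10) had 35.6, 37.1 and 38.2 CPM in antagonist libraries and 55.0, 49.9 and 45.9 CPM in IgG libraries (-0.44 ± 0.08, adjusted p = 0.00122). In all 3 the groups did not overlap, as in 49% of all tested genes. Scaled by library totals and not by TMM, FCER1G was -0.20 and did not pass, which leaves 2 of the 3 called.

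The enzymes below the ITIMs gave a mixed picture: of 17 tested, 2 rose and 1 fell (median log2 fold change -0.04). Over all tested genes, 15.6% rose and 20.5% fell. PTPN6, which encodes SHP-1, had 322, 307 and 322 CPM in antagonist libraries and 323, 355 and 369 CPM in IgG libraries (-0.14 ± 0.06, adjusted p = 0.108), and passed without IgG library 1 (-0.16). PTPN11, which encodes SHP-2 (-0.09 ± 0.07), and INPP5D, which encodes the lipid phosphatase SHIP-1 (0.11 ± 0.06), did not pass, although INPP5D did with library totals (0.19). The members that rose were the SHIP-2 gene INPPL1 (0.39 ± 0.08) and the ubiquitin ligase gene CBL (0.41 ± 0.06). Without IgG library 1, 6 of these enzyme genes were called, as were 4961 of all 13990 genes tested in that fit.

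Of 19 genes of ligands, 12 were tested, and 0 rose and 2 fell (median log2 fold change 0.03). Shares over all tested genes were 15.6% higher and 20.5% lower. HLA-B, a class I heavy chain, had 315, 325 and 312 CPM in antagonist libraries and 365, 360 and 375 CPM in IgG libraries (-0.21 ± 0.05, adjusted p = 0.0105). B2M, the class I light chain, had 1189, 1283 and 1170 CPM in antagonist libraries and 1662, 1491 and 1497 CPM in IgG libraries (-0.35 ± 0.06, adjusted p = 0.00143). HLA-C was at 0.06 ± 0.12 (adjusted p = 0.736). Class I heavy chain genes are near copies of each other, so their counts are uncertain in the same way as those of LILRB3 and LILRA6. HLA-B lost its call without antagonist library 1 or 3 and with library totals, so that without either of these libraries 1 ligand gene was called.

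Among other ITIM receptors, 2 of 18 tested genes rose and 1 fell (median 0.07). Among Fc gamma receptors, 0 of 6 rose and 1 fell (median -0.15). Over all tested genes, 15.6% rose and 20.5% fell. The called receptors were CD5 (1.73 ± 0.28, from 170 antagonist and 49 IgG counts), CD300LF (0.19 ± 0.07), PECAM1 (-0.20 ± 0.06) and FCGR2A (-0.25 ± 0.06). Of these 4, CD5 kept its call without any single library. CD300LF and PECAM1 lost theirs without antagonist library 1 or 3 or IgG library 2, and FCGR2A without antagonist library 3. With library totals PECAM1 (-0.12) and FCGR2A (-0.17) did not pass, nor did PECAM1 with DESeq2 (-0.19). Without antagonist library 1 or 3, 1 other ITIM receptor was called, and the Fc gamma receptor count was 2 without antagonist library 2 or IgG library 1, and 0 without antagonist library 3 or with library totals.

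Of 26 neighbours in the leukocyte receptor complex, 17 were tested, with 2 higher and 2 lower (median 0.11). Shares over all tested genes were 15.6% higher and 20.5% lower. LENG8 had 364, 343 and 362 CPM in antagonist libraries and 197, 238 and 242 CPM in IgG libraries (0.66 ± 0.08). RPS9, a ribosomal protein gene with a model that spans LILRB3 and LILRA6 on the opposite strand and shares 0 exon bases with either, was lower (-0.36 ± 0.06). CNOT3 (0.50 ± 0.18) and NDUFA3 (-1.03 ± 0.33, from 37 and 73 counts) also passed, but among fits without 1 library CNOT3 passed only without IgG library 3, and NDUFA3 only without antagonist library 2 or IgG library 3. Without antagonist library 1 or 3 or IgG library 1 or 2, 2 of the neighbours were called.

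The agonist table listed 0 of the 10 receptors but did list 12 genes of the adaptor, enzyme, ligand, ITIM receptor and Fc receptor lists, of which 7 were called lower with the antagonist and are described here. Of its 904 listed genes, 99.9% passed the same test against IgG, 55.6% as higher, so it is a selected list whose zero point is uncertain and a call there is not independent evidence. TYROBP had 4207, 3123 and 3329 counts in agonist libraries and 2663, 1894 and 2287 counts in IgG libraries, a log2 fold change of 0.54 ± 0.09. HCST (0.43 ± 0.08), FCER1G (0.30 ± 0.07), PECAM1 (0.38 ± 0.06), HLA-B (0.22 ± 0.08), B2M (0.19 ± 0.05) and FCGR2A (0.17 ± 0.07) also lay above 0 with the agonist. With DESeq2 size factors HLA-B, B2M and FCGR2A did not pass (0.13, 0.09 and 0.07). HLA-B also did not pass without agonist library 1 or IgG library 1 or 2, nor FCGR2A without agonist library 3 or IgG library 2. The difference between the antibodies passed the interaction test for these 7. They were named for their fall with the antagonist or as fixed choices, so that their common direction is no result. Over all 12 the difference passed for 10, where 56.5% of 902 shared genes passed, and for 9 with library totals. FES (antagonist 0.10, agonist 0.29, adjusted p = 0.18 for the difference) and CEACAM1 (0.07 and 0.84, adjusted p = 0.13) did not pass, and PILRA (0.12 and 0.48) did not with library totals (adjusted p = 0.0887).

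**Figure D5:**
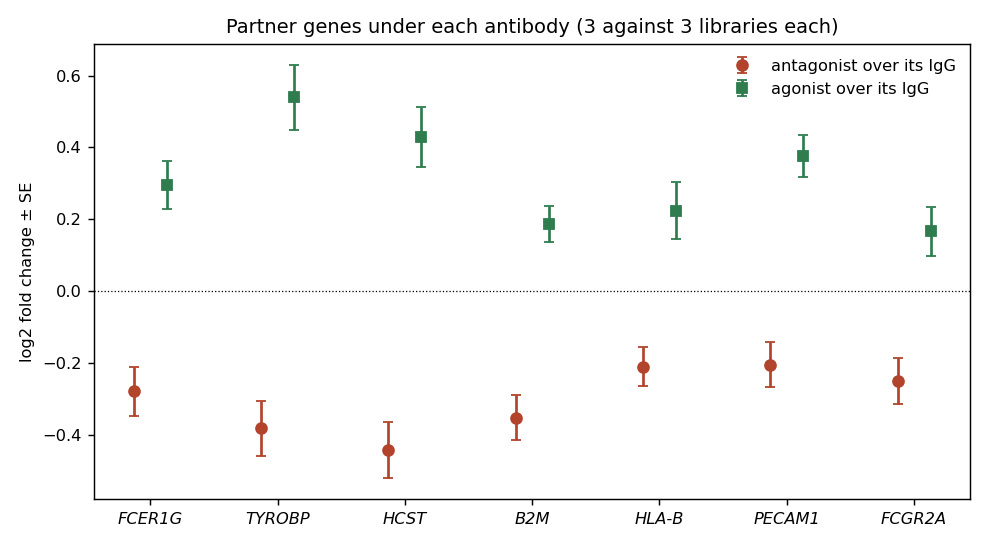
Log2 fold change ± SE (y axis) of 7 genes, 3 against 3 libraries each. Red circles are the antagonist over its IgG and green squares the agonist over its IgG. The 7 are those called lower with the antagonist among 12 genes of the adaptor, enzyme, ligand, ITIM receptor and Fc receptor lists. The red circles therefore lie below 0 by that choice. The green squares lie between 0.17 and 0.54.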

How the data were processed

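RNA was extracted with Trizol and chloroform, per the labels' protocols. The authors deposited whole-number read counts per gene, not normalized, in 1 table per set. HISAT2, Cufflinks and the build hg38 are named per the submitters' processing notes. Their versions, the counting program, the annotation and any strand setting were not given in the sources used here. With no strand known, a gene and its antisense partner cannot be told apart. Of 28395 rows in set 1, 570 had no symbol (0.0981 to 0.105% of counts in antagonist and 0.0678 to 0.0767% in IgG libraries) and were left out. Of the named rows, 6586 were at 0 throughout. Set 2 totals, 3135972 to 3522203 counts in agonist and 2764479 to 3321678 in IgG libraries, cover listed genes only and are not depths.

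Columns name a group but no replicate, so library numbers follow table order and pair nothing. Tests of counts used edgeR 4.0.16 under R 4.3.3 (filterByExpr with a minimum count of 10, TMM, quasi-likelihood test, Benjamini-Hochberg adjustment over all tested genes, threshold 0.05). Each set was tested on its own, and the difference between antibodies as an interaction over 902 shared genes. CPM values are TMM-scaled unless called unscaled. For receptors below the filter, summed counts were compared by an exact test, whose intervals, like the limit of 3 counts, cover counting error only. Scripts were tested on simulated data. Alternatives were RLE scaling, library totals, no filter, a mean of at least 10 counts, DESeq2 1.42.0 and leaving out each library.

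Receptors and lists were chosen with earlier results of these data known. Named genes were the 10 receptors and up to 6 passing members of each list with the largest change. Fixed choices, taken whatever their value, included FCER1G, TYROBP, PTPN6, PTPN11, INPP5D, HLA-B, HLA-C and B2M. Also named were the 3 genes most like each tested receptor with a mean of at least 5 CPM (log2 CPM with a prior count of 2). Marker genes, interferon targets near 0, IRF1, IRF9, GBP2, GBP5, FES, CEACAM1 and PILRA were named after their values were seen. Symbols LILRA3 and LILRP1 were not analysed here, and some genes that the rule names are not reported here.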

Additional observations from a re-analysis of the deposited data

Results flagged for a closer look

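For 7 genes, the antagonist effect minus the agonist effect, each against its own IgG, passed the interaction test (edgeR, adjusted over 902 shared genes). They come from the adaptor, ligand, ITIM receptor and Fc receptor lists, and were named for their fall with the antagonist or as fixed choices. Differences are on the log2 scale. The difference was -0.92 for TYROBP (adjusted p = 3.62e-05), -0.87 for HCST (4.2e-05), -0.58 for FCER1G (0.000135), -0.58 for PECAM1 (5.12e-05), -0.54 for B2M (7.38e-05), -0.43 for HLA-B (0.00176) and -0.42 for FCGR2A (0.00101). With library totals in place of TMM, the differences were -0.83 for TYROBP, -0.77 for HCST, -0.48 for FCER1G, -0.48 for PECAM1, -0.44 for B2M, -0.34 for HLA-B and -0.32 for FCGR2A, all past the threshold. Of 12 genes of these lists and the enzyme list in both tables, 10 passed, where 56.5% of the 902 shared genes did. With library totals, 9 of the 12 passed. FES and CEACAM1 did not pass, and PILRA did not with library totals. The zero point of the agonist table is uncertain, as its genes are a selection.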

How the results depend on the processing

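No paired analysis was possible because the columns carry no replicate numbers. The count of receptors past the threshold was 0, and it was 1 (LILRA2, log2 fold change -0.23) with no filter on low counts and 0 to 1 when single libraries were left out. With library totals the log2 fold change was -0.14 for LILRA2, -0.11 for LAIR1 and -0.26 for LILRA1, closer to 0 than with TMM. Leaving out single libraries gave -0.30 to -0.12 for LILRA2, -0.024 to 0.20 for LILRB2, -0.65 to 0.27 for LILRA6 and 0.14 to 1.04 for LILRB1. LILRB2 turned negative without antagonist library 1, and LILRA6 positive without antagonist library 3 or IgG library 1. The ratio of LILRB4 ran from 0.308 to 1.38 and was above 1 without antagonist library 1 (1.21) or IgG library 3 (1.38), and that of LILRB3 ran from 1.51 to 2.45. HLA-C ran from -0.12 (without antagonist library 2) to 0.17. The cause of these changes was not tested. All genes called numbered 4978, and 3143 to 5075 without single libraries (3143 without antagonist library 1 and 3190 without antagonist library 3). Of called genes, 43.1% were higher, and 65.4% with library totals. Called ligands (2) and other ITIM receptors (3) each numbered 1 without antagonist library 1 or 3, and neighbours (4) 2 without antagonist library 1 or 3 or IgG library 1 or 2. Interferon genes (5) numbered 2 without antagonist library 1 and 3 without IgG library 3. ITIM enzymes (3) numbered 6 without IgG library 1 and 5 with no filter. Fc gamma receptors (1) numbered 2 with no filter or without antagonist library 2 or IgG library 1, and 0 with library totals or without antagonist library 3. DESeq2 gave no adjusted p for LILRB1 and LILRA6, and LILRA6 had no value under the stricter filter. Counts under 10 per library limit LILRB3, LILRB4, LILRB5 and LILRA5.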
